A study of Micropterus salmoides with 45 samples.

Results

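The 50 genes described here were the most abundant ones listed for the liver of control largemouth bass (Micropterus salmoides), a freshwater fish. The genes were chosen by their level alone: the mean over the 15 control libraries had to reach 100 RPKM, a unit that scales the reads of a gene to its length and to the depth of the library. The rule found 50 of 2660 listed genes, or 1.88%. Since the control values chose them, their height in control liver is a description and was not tested.

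There were 45 liver libraries in 15 groups of 3, one group for each combination of 3 oxygen levels and 5 times. Dissolved oxygen was 7 mg/L for control fish, 3.0 ± 0.2 mg/L under moderate hypoxia and 1.2 ± 0.2 mg/L under severe hypoxia. Nitrogen was used to lower the oxygen, and 0 h was set once the level had been reached, so the 0 h groups of both hypoxia levels had already met falling oxygen. Samples followed at 4, 8, 12 and 24 h. All fish were 6 months old, were held at 20 °C and went without food during the trial, so the control groups were fasted as well. Every oxygen level used its own 3 tanks and no label gives a library's tank, so oxygen and tank cannot be told apart. Each tank held 30 fish and 5 fish were sampled per tank, but no label used here ties these fish to a library. Nothing in the labels shows that the 3 libraries of a group were separate fish or tanks. The p-values then cover only the spread between libraries, which may be technical.

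The liver of a fish makes most proteins of the blood plasma, handles glucose, glycogen and lipid, and forms bile. A liver transcriptome is usually uneven, with a small number of messages, many of them for secreted proteins, present at very high levels. When oxygen runs short, animal cells slow many costly processes and shift toward glycolysis. The identifiers in these data come from a de novo assembly and carry no gene names, so no role can be given to any of the 50 genes, and the labelled tissue could not be checked against liver markers.

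The listed genes held between 10.9% and 14.95% of the reads of a library, and library totals ran from 29986862 to 33433838 reads. Genes outside the tables were not analysed here, so "most abundant" refers to the listed genes and not to the whole liver. The 50 genes alone held 4.57 ± 0.30% of all reads in the control libraries (SD, n = 15). A member had a median of 12911.5 reads in a library and at most 280216. The lowest number was 0, in c86594_g4, and no other member was under 134 reads. Apart from the libraries of c86594_g4 near 0, counting error was small beside the spread between libraries. The table of control 8 h replicate 2 ended after 2527 genes and lacked 4 members (c92092_g1, c92225_g2, c92168_g4 and c92025_g1), whose values there were treated as missing. Control 4 h replicate 3 held the lowest value of 10 of the 50 members among all 45 libraries, more than any other library. Control 8 h replicate 3 had reads for all 23 genes of a set otherwise read in the severe 8 h libraries, at a summed 36.6 RPKM against 49.1 to 68.9 RPKM there and 0 in the other control 8 h libraries. None of the 50 members is in that set. Without both of these control libraries 54 genes met the rule, among them all 50 members.

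The 50 members spanned a wide range of levels. Of these, 3 members had a control mean of at least 1000 RPKM, 3 lay between 500 and 1000 RPKM, 23 between 200 and 500 RPKM and 21 between 100 and 200 RPKM. Their median control mean was 211 RPKM, against 5.24 RPKM for all listed genes. The coefficient of variation over the 15 control libraries ran from 15.3% to 74.6% among members, with a median of 31.7%, while all listed genes had a median of 37.6%. Only 21 members reached 100 RPKM in every control library, and 29 fell under it in at least 1. The members came from 50 different Trinity components (the assembler's groups of related transcripts), and 13 of them shared the component with another listed gene, so reads of those may have been divided between related transcripts. Only listed genes were counted for this, so the other members may share a component with genes that were not listed. The shortest member was 263 bp long and the longest 8124 bp, and the median length of 1999 bp compares with 2599 bp for the other listed genes.

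**Figure D1:**
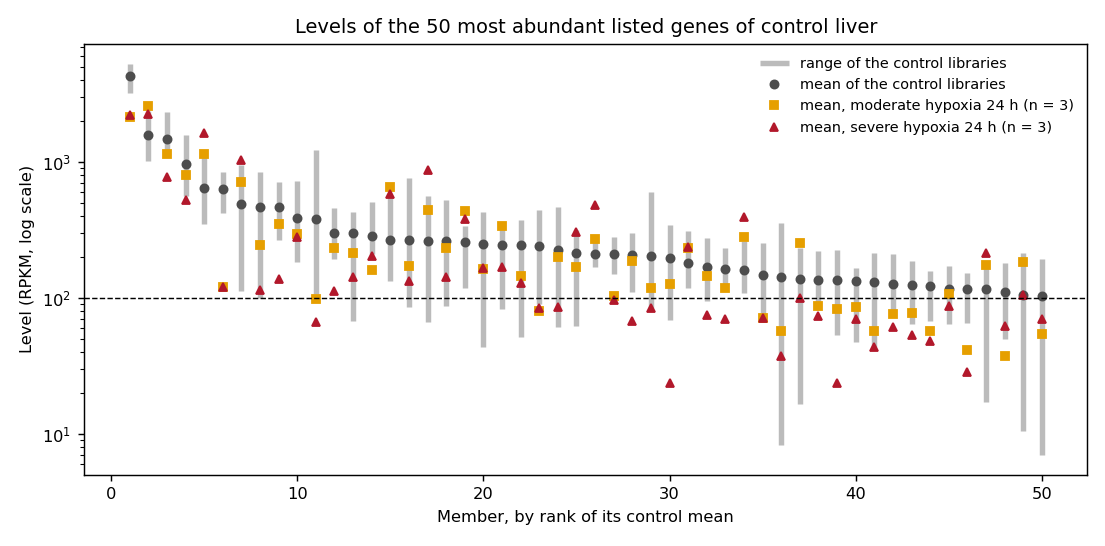
Level of each of the 50 members in RPKM on a log axis, ordered by the mean of the 15 control libraries; grey bars span the lowest to the highest control library, dark points are control means, squares the mean of moderate hypoxia at 24 h and triangles that of severe hypoxia at 24 h (3 libraries each). The dashed line is the 100 RPKM minimum of the rule; at 24 h of severe hypoxia 27 of the 50 means lie on or above it.

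At the lower limit, the members nearest to it were c89138_g10 with a control mean of 104 ± 58.0 RPKM and c90790_g2 with 103 ± 43.7 RPKM (SD, n = 15). The nearest genes outside were c88979_g1 with 99.96 ± 37.6 RPKM and c90717_g1 with 99.6 ± 37.8 RPKM. These 4 genes lay well within each other's spread, so the limit does not mark a break in level. Leaving out 1 control library at a time gave between 50 and 54 genes, of which 49 to 50 were members.

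A single gene, c78097_g1, stood far above the rest. Its control mean was 4289.96 ± 668 RPKM (n = 15), with 3189 RPKM in the lowest control library, 4362 RPKM at the median and 5268 RPKM in the highest. The next were c84608_g7 with a control mean of 1563 ± 383 RPKM, c88255_g5 with 1479 ± 297 RPKM and c91232_g1 with 959 ± 254 RPKM. The levels of c84608_g7 and c88255_g5 did not differ beyond their spread, and they exchanged ranks 2 and 3 between control times. The lowest control library of c78097_g1 lay above the highest control library of c84608_g7, at 2368 RPKM.

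Together the 50 members held close to the same share of the listed RPKM at every control time. From 0 to 24 h in time order the mean share was 44.2 ± 1.22%, 43.9 ± 3.11%, 44.1 ± 0.472%, 43.9 ± 2.21% and 44.5 ± 3.92% (SD, n = 3). The control values chose the members, so the control share stands as a reference. The rule did not use the values of the 2 hypoxia levels, but a choice by control level may still favour the level closer to control. In moderate hypoxia the shares in the same order were 41.5 ± 1.23%, 43.5 ± 0.649%, 40.1 ± 1.41%, 41.5 ± 1.72% and 38.3 ± 1.10%. Severe hypoxia started at 42.4 ± 1.03% and gave 38.7 ± 2.48%, 35.7 ± 1.64%, 34.9 ± 3.32% and, at the end, 31.0 ± 1.91%. The libraries of the hypoxia levels overlapped at 0 h. From 4 h on every severe library held a smaller share than every moderate library of its time. The summed RPKM of the members, however, overlapped between the hypoxia levels at every time from 4 to 24 h. From 4 h on the sum of the other listed genes was higher in every severe than in every moderate library of its time. The separation in share thus lay in the sum of the other genes, not in that of the members. As a share of all reads, the members were apart, and lower in severe hypoxia, at 12 h only. Over the 12 libraries from 4 to 24 h the mean share was 44.1 ± 2.35% in control, 40.9 ± 2.28% in moderate and 35.1 ± 3.55% in severe hypoxia.

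**Figure D2:**
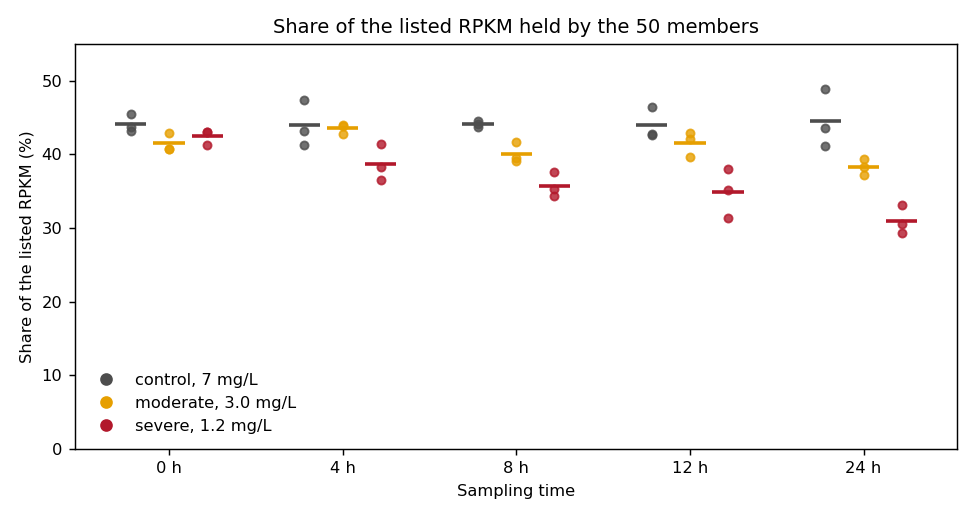
Share of the listed RPKM held by the 50 members in percent, by sampling time; each point is a library, coloured by oxygen level, and the short bar is the mean of 3 libraries. Control libraries stay between 41.1% and 48.8%, and the severe libraries at 24 h lie at 29.3%, 33.1% and 30.6%, under the 3 moderate libraries at 39.4%, 38.3% and 37.2%.

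At 24 h both parts of that ratio were apart between the severe and the control libraries, which was not tested because control values chose the members. The summed level of the 50 members was 19275 ± 1298 RPKM in control, 16360.4 ± 257 RPKM in moderate and 15338 ± 1248 RPKM in severe hypoxia at 24 h (n = 3). The summed level of the 2610 other listed genes was 24088 ± 2324 RPKM in control, 26377 ± 1426 RPKM in moderate and 34116 ± 1331 RPKM in severe hypoxia. The moderate and severe libraries overlapped in the member sum and were apart in the sum of the other genes. The moderate and control libraries were apart in the member sum and overlapped in the sum of the other genes. As a share of all reads of the library, the members held 4.75 ± 0.315% in control, 3.95 ± 0.0614% in moderate and 3.74 ± 0.214% in severe hypoxia at 24 h. At 0 h these shares were 4.48 ± 0.153%, 4.37 ± 0.199% and 4.45 ± 0.0771%. At 24 h all listed genes together held 12.2 ± 0.65% of all reads in the control libraries. Their share was 12.3 ± 0.527% in moderate and 14.7 ± 0.357% in severe hypoxia. In bulk liver, fewer cells of a type and less RNA per cell cannot be told apart, and RPKM gives parts of a library, not amounts per cell.

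The membership of the upper end of the list also differed between groups. In the 5 control groups 46 to 49 of the 50 members had a group mean of at least 100 RPKM, joined by 1 to 10 other genes. In moderate hypoxia 44, 42, 38, 42 and 36 members reached 100 RPKM from 0 to 24 h in time order, joined by 8, 8, 8, 12 and 21 other genes. Under severe hypoxia the same counts were 45, 37, 33, 30 and 27 members, joined by 11, 20, 24, 33 and 38 other genes. Of the 50 highest genes of a group, 45 to 48 were members in control, 34 in moderate hypoxia at 24 h and 24 in severe hypoxia at 24 h. The 10 highest genes of every group were members, with 1 exception at severe 8 h, where c78658_g1, named after its values were seen, reached a mean of 618 RPKM. Because control means chose the members, the hypoxia groups at 0 h, with 44 and 45 members, are given as the base for their later counts. How far the choice itself lowers the counts of groups further from control was not tested.

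The first place itself was lost by c78097_g1 in 3 groups. At 24 h its level was 4749.6, 3189 and 5265 RPKM in the control libraries, 1666, 2128 and 2655 RPKM in moderate hypoxia, and 1811, 3328 and 1535 RPKM in severe hypoxia. Every moderate library lay under every control library, severe replicate 2 overlapped the control range, and the hypoxia levels overlapped each other. In severe hypoxia its level from 0 h (4398, 3709 and 3874 RPKM) to 24 h fell by 0.92 on the log2 scale, with an SE of 0.30 and an adjusted p of 0.00974. In moderate hypoxia it fell by 0.90 from 0 h (4827, 3816 and 3299 RPKM) to 24 h, with an SE of 0.30 and an adjusted p of 0.0335. The 2 levels differed in the course: at 12 h the difference of severe (2226, 1527 and 2046 RPKM) from moderate hypoxia (3496, 3292 and 4505 RPKM) was -0.97 ± 0.30 (log2 ± SE, adjusted p = 0.0104), and all 3 severe libraries lay under all 3 moderate ones. The mean difference over 4 to 24 h was -0.50 ± 0.15 (adjusted p = 0.00577), and it was -0.24 with an adjusted p of 0.171 after quantile normalization. That method gives the highest gene of every library the same value. By group mean c78097_g1 was the highest gene in both hypoxia levels at 4 and 8 h, so its difference there shrinks by construction. The share of listed RPKM held by this gene alone was 10.1 ± 2.43% in control, 5.01 ± 0.996% in moderate and 4.47 ± 1.82% in severe hypoxia at 24 h (n = 3).

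The gene that took the first place in those groups, moderate 24 h, severe 12 h and severe 24 h, was c84608_g7. Its level at 24 h was 1241, 1271 and 1036 RPKM in control, 2646, 2821 and 2249 RPKM in moderate hypoxia and 2824, 2244 and 1709.5 RPKM in severe hypoxia. All hypoxia libraries of 24 h lay above all control libraries of that time. In moderate hypoxia it rose from 0 h (999, 1997 and 1209 RPKM) to 24 h by 0.93 ± 0.31 (log2 ± SE, adjusted p = 0.0359). The call was lost when either moderate 0 h replicate 1 (0.72, adjusted p = 0.161) or replicate 3 (0.86, adjusted p = 0.104) or any moderate 24 h library was left out, the last with adjusted p-values from 0.0501 to 0.110. It was also lost with a pseudocount of 0.1 (adjusted p = 0.0647), with only the compared groups in the fit (0.0857) and with a 2-fold minimum, so in 8 of 14 alternatives. Between the hypoxia levels the mean difference of 4 to 24 h was 0.05 ± 0.16, and the gene was not called there.

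The other leading genes were lower in severe hypoxia at 24 h. For c88255_g5 the levels were 1821, 1609 and 1488 RPKM in control 24 h, 1329, 1096 and 1026 RPKM in moderate 24 h and 631, 784 and 899 RPKM in severe 24 h. The 3 oxygen levels did not overlap at that time. From severe 0 h (1149.6, 1306 and 1291.5 RPKM) to severe 24 h it fell by 0.71 ± 0.25 (adjusted p = 0.0168). For c91232_g1, severe 24 h held 424, 501 and 654 RPKM against 782, 666 and 762 RPKM at severe 0 h, and none of the 13 comparisons called it, although quantile normalization gave a call for severe against moderate hypoxia over 4 to 24 h (-0.43, adjusted p = 0.00702).

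Set against control at the same time, the members are given as values without a test, because the control level chose them. At 0 h the median difference of the members from control was -0.05 on the log2 scale in severe hypoxia, against -0.01 for all listed genes. From 4 to 24 h the severe medians were -0.04, -0.56, -0.85 and -1.07 in time order, while those of all genes were 0.08, -0.01, 0.07 and 0.22. The moderate medians from 0 to 24 h were -0.12, 0.06, -0.32, -0.33 and -0.58, while all genes stood between -0.03 and 0.07. At severe 24 h 27 members were at least 2-fold lower than control and 6 at least 2-fold higher, where 19.4% of the listed genes were lower and 32.1% higher by that much. At moderate 24 h the counts were 10 lower and 6 higher, against 12.2% and 12.7% of the listed genes. In 29 members every severe 24 h library lay under every control 24 h library, and in 8 every one lay above, against 31.2% and 41.8% of the listed genes.

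**Figure D3:**
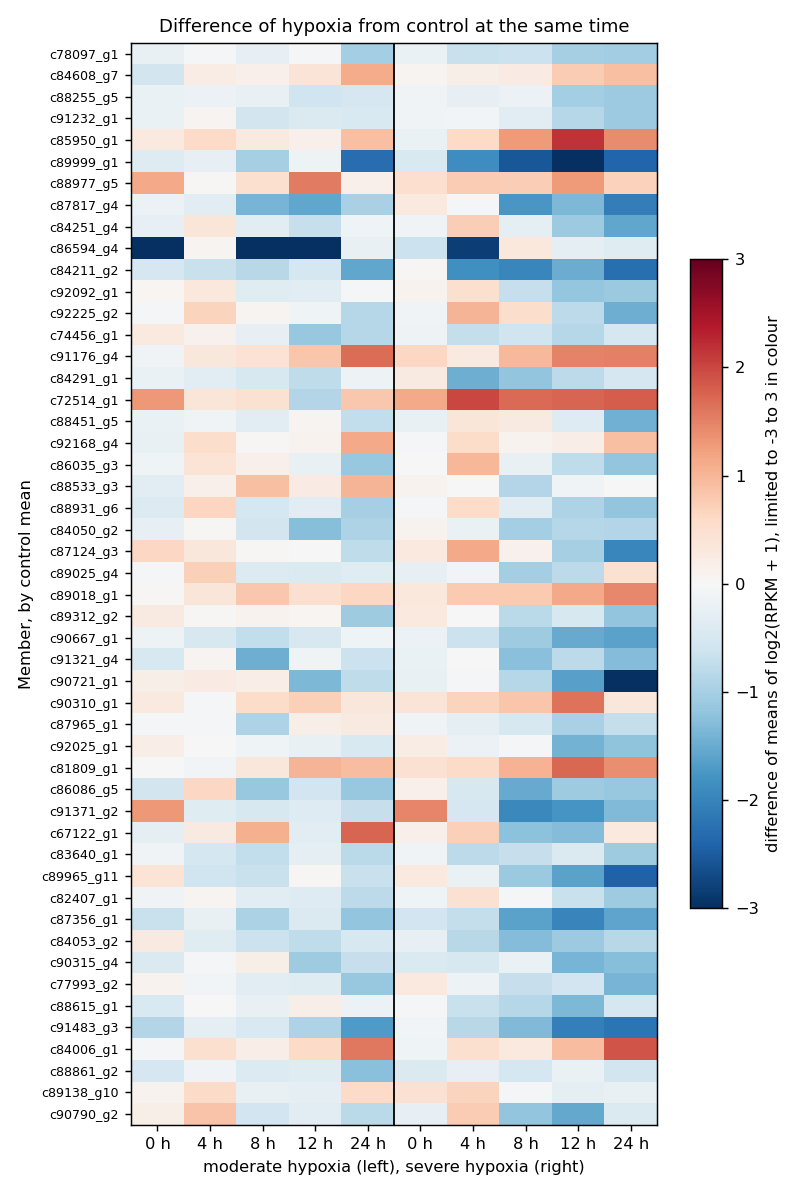
Difference of hypoxia from control at the same time for each of the 50 members (rows, by control mean), as the difference of mean log2(RPKM + 1) of 3 libraries a group, with colours limited to -3 and 3; the left 5 columns are moderate and the right 5 severe hypoxia. Blue dominates the severe columns from 8 h on, where 36, 40 and 38 of the 50 members lie below control at 8, 12 and 24 h. The median difference of all listed genes was -0.01, 0.07 and 0.22 at these times. High control values chose the members, so no test was made.

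The rule that chose the members used no severe or moderate library, and the hypoxia levels were compared by test on log2(RPKM + 1). The comparison is still not free of the rule, because severe liver lay further from control than moderate liver. At 24 h 32.1% of the listed genes were 2-fold higher and 19.4% lower in severe hypoxia, against 12.7% and 12.2% in moderate hypoxia. How far the choice by control level shaped the member counts here, and those against 0 h, was not tested. The added 1 shrinks the change of low genes. The authors' listing rule was not given, so whether the list itself drew on differences between these libraries is not known. A gene is called when its adjusted p is under 0.05 over 2656 genes, and all 50 members were among those tested. Over the mean of 4 to 24 h, 17 members were lower and 5 higher in severe than in moderate hypoxia, which is 34% and 10% of the members. Among all genes tested 19.7% were lower and 32% higher, 51.7% in all. The median difference of the members was -0.25, against 0.05 for all genes, and 38 of the 50 had a value below 0. Quantile normalization, which moved the median of all genes from 0.05 to -0.08, gave 25 lower and 2 higher. The share of all genes called after it is not given here, so these counts have no background.

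**Figure D4:**
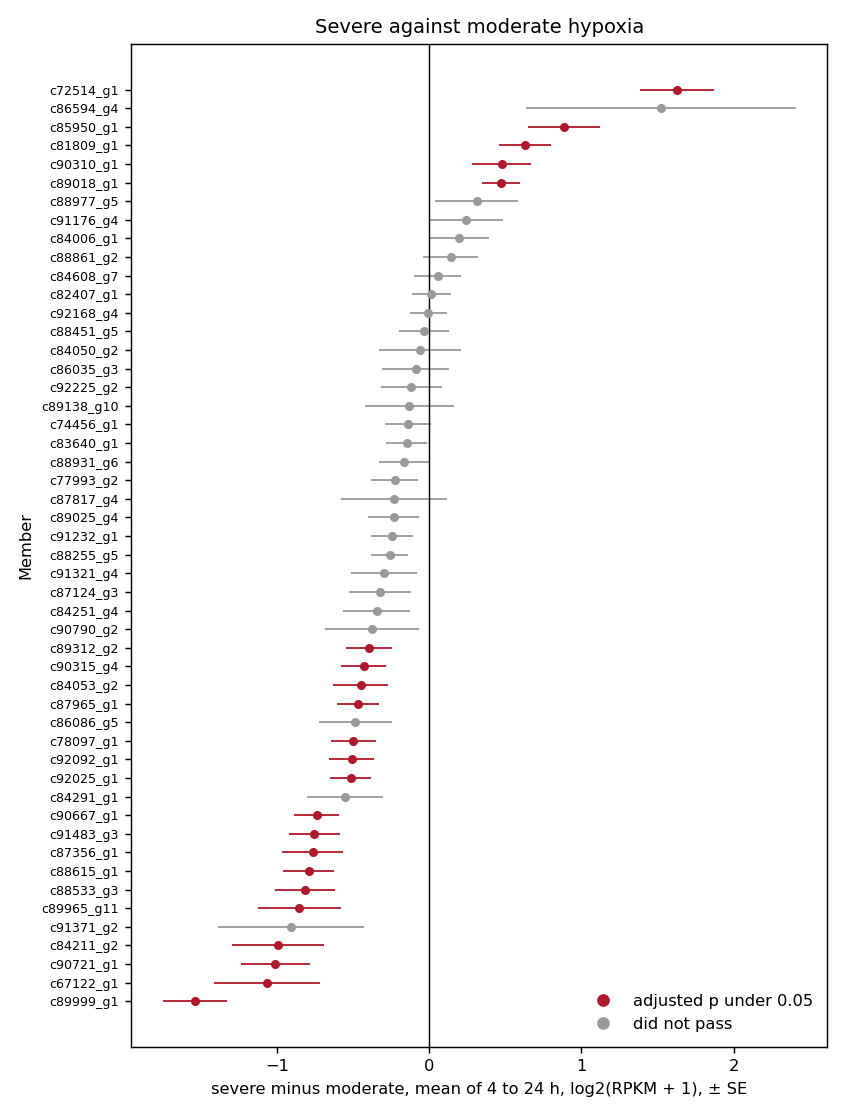
Severe minus moderate hypoxia as the mean difference of log2(RPKM + 1) over 4, 8, 12 and 24 h (12 libraries against 12), with 1 SE, for each of the 50 members in order of size; red points passed an adjusted p under 0.05 and grey ones did not. The range of the called members runs from -1.54 for c89999_g1 to 1.63 for c72514_g1.

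By single times the number of members called was highest at 12 h, and so was that of all genes. At 12 h 14 members (28%) and 1070 of the 2656 genes were called. At 0 h no member was called by limma, and 0.0377% of all genes were called. An unadjusted p under 0.05 was held by 2 members and by 109 of the 2656 genes. At 4 h 1 member (2%) was higher and 1 (2%) lower, against 3.43% and 0.64% of all genes. At 8 h 4 members (8%) were lower and none higher, against 4.37% and 9.3% of all genes. By limma, 10 members and 710 of the 2656 genes had an unadjusted p under 0.05 at 8 h. At 12 h 10 members (20%) were lower and 4 (8%) higher, against 14.5% and 25.8% of all genes. At 24 h 8 members (16%) were lower and 1 (2%) higher, against 3.12% and 15% of all genes. The number called at 8 h was 2 without moderate 8 h replicate 1 or severe 8 h replicate 1 and 1 without severe 8 h replicate 2. The 9 called at 24 h became 5 without either moderate replicate 1 or moderate replicate 3 of that time, and 4 without either severe replicate 1 or severe replicate 2.

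Between the hypoxia levels, the largest negative difference over 4 to 24 h belonged to c89999_g1, the sixth most abundant. Its control libraries ran from 419 to 844 RPKM with a median of 664 RPKM. At 12 h it stood at 127, 36.2 and 60.5 RPKM in severe hypoxia and at 450.5, 445 and 639 RPKM in moderate hypoxia. At 24 h it stood at 84.1, 199 and 76.2 RPKM in severe hypoxia and at 79.1, 119 and 163 RPKM in moderate hypoxia. The severe libraries were already apart from the moderate ones at 4 h, and by 24 h the 2 levels overlapped, both far under the control libraries of that time (550.1, 419 and 784 RPKM). The difference of severe from moderate hypoxia was -1.62 ± 0.42 at 4 h (log2 ± SE, adjusted p = 0.0177), -1.54 ± 0.42 at 8 h (adjusted p = 0.00968) and -2.93 ± 0.42 at 12 h (adjusted p = 4.08e-06). The 4 h call was lost without moderate 4 h replicate 2 (adjusted p = 0.159), moderate 4 h replicate 3 (0.0601) or severe 4 h replicate 3 (0.229). With only the compared groups in the fit it was lost too (adjusted p = 0.120). From their own 0 h to 24 h, the level fell by 2.11 ± 0.42 in severe hypoxia (adjusted p = 0.000155) and fell by 2.08 ± 0.42 in moderate hypoxia (adjusted p = 0.00109).

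The largest positive difference over the same times belonged to c72514_g1. At 12 h it stood at 1017, 1331 and 861 RPKM in severe hypoxia, at 170.0, 286 and 103 RPKM in moderate hypoxia and at 295, 388 and 274 RPKM in control. The severe libraries lay above all others at 4, 12 and 24 h, and at 8 h 1 moderate library (745 RPKM) reached into their range of 666 to 972 RPKM. Severe hypoxia was higher than moderate hypoxia by 2.61 ± 0.49 at 12 h (adjusted p = 0.000143) and by 1.63 ± 0.25 over 4 to 24 h (adjusted p = 2.11e-06). At 0 h both hypoxia levels were already above control, with 478, 459.8 and 684 RPKM in moderate and 431, 580.1 and 418 RPKM in severe hypoxia against 150.4, 258 and 257 RPKM. The difference of 1.64 ± 0.49 at 4 h (adjusted p = 0.0484) lost its call in 9 of 14 alternatives, with adjusted p-values up to 0.445 without moderate 4 h replicate 2.

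The fifth most abundant member, c85950_g1, was also higher in severe than in moderate hypoxia over 4 to 24 h, with a course of its own. At 12 h it reached 1406, 2281 and 3069 RPKM in severe hypoxia, against 632.5, 553 and 426 RPKM in moderate hypoxia and 355, 389 and 775 RPKM in control. Every severe library of 12 h lay above every other library of that time. Severe hypoxia was higher than moderate hypoxia by 2.01 ± 0.48 at 12 h (adjusted p = 0.00153) and by 0.88 ± 0.24 over 4 to 24 h (adjusted p = 0.00275). The differences of 0.01 at 4 h, 1.002 at 8 h and 0.51 at 24 h did not pass the test. In the severe groups it rose from 0 h (705, 719.7 and 275 RPKM) to the mean of 4 to 24 h by 1.57 ± 0.38 (adjusted p = 0.00223). Without severe 0 h replicate 3, its lowest library, that rise was 1.11 with an adjusted p of 0.0579.

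**Figure D5:**
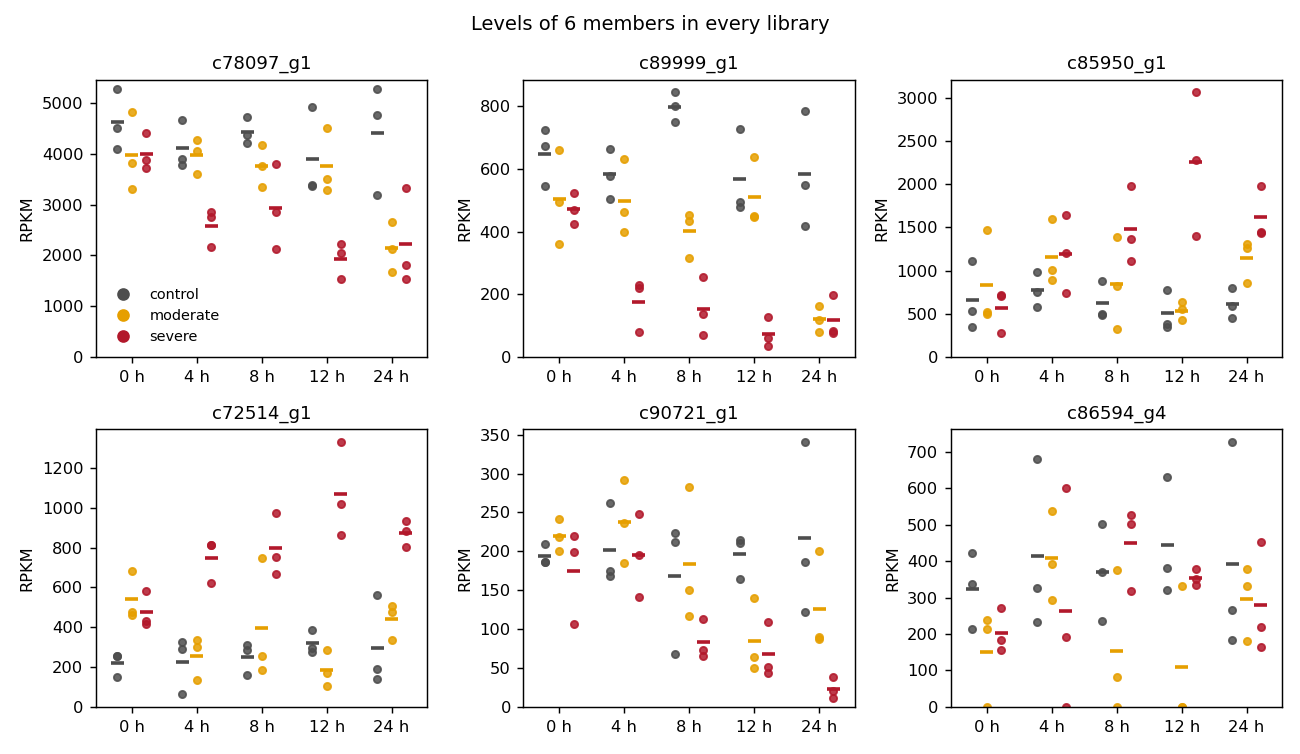
Level in RPKM of 6 members in every library, by sampling time and oxygen level; each point is a library and the short bar is the mean of 3, on an axis that starts at 0 in each panel. Severe libraries of c89999_g1 and c90721_g1 lie low at late times, those of c85950_g1 and c72514_g1 lie high, and c86594_g4 lies near 0 in 5 hypoxia libraries.

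Other members stood lowest at the end of the trial. At 24 h c90721_g1 stood at 38.7, 11.8 and 20.3 RPKM in severe hypoxia, against 87.2, 89.7 and 201 RPKM in moderate hypoxia and 187, 341 and 122 RPKM in control. The severe libraries lay under all others of that time. The difference of severe from moderate hypoxia was -2.41 ± 0.45 (adjusted p = 0.000587), and from severe 0 h the level fell by 2.93 ± 0.45 (adjusted p = 6.04e-06). In rank by group mean it went from 34 at severe 0 h to 388 at severe 24 h among the listed genes. Another such gene was c89965_g11, which stood at 19.8, 25.6 and 26.1 RPKM in severe and 70.1, 79.1 and 98.9 RPKM in moderate hypoxia at 24 h. Its severe level at 0 h was 236, 168 and 200.02 RPKM, and by 24 h it fell by 3.02 ± 0.54 (adjusted p = 4.4e-05). Its difference of severe from moderate hypoxia was -1.64 ± 0.54 at 12 h (adjusted p = 0.016) and -1.75 ± 0.54 at 24 h (adjusted p = 0.02). These calls were lost without moderate 12 h replicate 1 (adjusted p = 0.0523) or severe 12 h replicate 3 (0.105), and without moderate 24 h replicate 3 (0.0737) or severe 24 h replicate 1 (0.0748).

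Among the members called at 8 h, the largest differences were those of c67122_g1 and c88533_g3. The former stood at 38.4, 26.3 and 74.0 RPKM in severe and at 299.5, 134 and 235 RPKM in moderate hypoxia, a difference of -2.30 ± 0.69 (adjusted p = 0.0219). The latter stood at 149.7, 102 and 121 RPKM in severe and at 447, 396 and 415 RPKM in moderate hypoxia, a difference of -1.76 ± 0.40 (adjusted p = 0.0019). Neither pair of groups overlapped. In both genes the moderate mean of that time was also above the control mean, so the distance between the hypoxia levels was made up from either side of control. The call of c67122_g1 was lost without moderate 8 h replicate 1 (adjusted p = 0.0897) or 3 (0.0524) and without severe 8 h replicate 1 (0.0606) or 2 (0.11).

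Smaller positive differences were held by c89018_g1 and c81809_g1. For c89018_g1 the levels at 24 h were 481, 601 and 367 RPKM in severe hypoxia, 246, 282 and 282 RPKM in moderate hypoxia and 177, 169.6 and 178 RPKM in control, with no overlap between the 3 levels. The difference between the hypoxia levels was 0.81 ± 0.25 (adjusted p = 0.0195). It was 0.64 with an adjusted p of 0.12 after quantile normalization, and the call was also lost without moderate 24 h replicate 1 (0.079) or severe 24 h replicate 1 (0.0568) or 2 (0.114). For c81809_g1 the severe level rose from 0 h (198, 279 and 179 RPKM) to the mean of 4 to 24 h by 0.71 ± 0.27 (adjusted p = 0.0364), a call lost without severe 0 h replicate 1 or 3, severe 8 h replicate 3, severe 12 h replicate 1 or severe 24 h replicate 3, with adjusted p-values from 0.0507 to 0.171.

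Within the severe groups the members moved away from their own 0 h. Against the mean of 4 to 24 h, 17 members fell and 3 rose, which is 34% and 6%, while 16.5% of all genes fell and 25.8% rose. The median change of the members was -0.58, against 0.10 for all genes. By 24 h 23 members had fallen and 4 had risen, which is 46% and 8%, against 19.7% and 32.9% of all genes. Leaving out severe 0 h replicate 1, 2 or 3 lowered the 20 members called over 4 to 24 h to 10, 13 or 12. Besides the genes above, c89025_g4 rose from 0 h (124, 146 and 151 RPKM) to 24 h (383, 209.7 and 315 RPKM) by 1.07 ± 0.34 (adjusted p = 0.00914). Its severe libraries of 24 h overlapped those of control 24 h (169, 186 and 315.5 RPKM), and the call was lost without severe 24 h replicate 1 (adjusted p = 0.0564).

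Within the moderate groups, the mean of 4 to 24 h and the 24 h groups were compared with 0 h, and the other single times were not. Over the mean of 4 to 24 h no member was called by limma, and 1.51% of all genes were called. An unadjusted p under 0.05 was held by 7 members and by 444 of the 2656 genes. At 24 h 5 members had fallen and 2 had risen from 0 h, which is 10% and 4%, against 8.66% of all genes in each direction. The members' falls were thus near the share of all genes. The largest falls among the called members were those of c89999_g1, given above, and c77993_g2. The latter went from 161, 146 and 122.9 RPKM at moderate 0 h to 57.7, 64.7 and 48.9 RPKM at moderate 24 h, with no overlap, and fell by 1.31 ± 0.31 (adjusted p = 0.00346). In severe hypoxia the same gene fell from 171, 149 and 166 RPKM to 39.8, 62.3 and 42.7 RPKM, a change of -1.75 ± 0.31 (adjusted p = 3.34e-05). The rises were those of c84608_g7, given above, and c92168_g4, which went from 205, 274 and 212 RPKM to 423, 455 and 435 RPKM, by 0.94 ± 0.24 (adjusted p = 0.00732).

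The control course gave few calls. No member was called among the 5 control times by limma's F-test, and 0.0753% of all genes were called. By the same test 10 of the 50 members and 269 of the 2656 genes had an unadjusted p under 0.05. When the change from 0 h to the mean of 4 to 24 h in severe hypoxia was set against the same change in control, 6 members were lower and 1 higher, which is 12% and 2%, against 5.27% and 12.3% of all genes. This difference of changes is not the control mean that chose the members, but it and the F-test use the same control libraries. Whether that choice shaped these calls was not tested. The same comparison for moderate hypoxia called no member by limma, 5 had an unadjusted p under 0.05, and 0% of all genes were called, with 231 genes at an unadjusted p under 0.05. Leaving out 1 library at a time moved the 7 severe calls between 2 (control 0 h replicate 3 or severe 0 h replicate 1) and 11 (control 4 h replicate 3), with 4 without control 0 h replicate 2, severe 0 h replicate 2 or severe 8 h replicate 3 and 3 without severe 0 h replicate 3. Without control 4 h replicate 3 and control 8 h replicate 3 together, a choice made after seeing the data, 14 members were called. The count of all genes called in that run is not given here.

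A different pattern was seen in c86594_g4, which was near 0 in single libraries. Its level was 0.164 RPKM in moderate 0 h replicate 3, 0.42 RPKM in moderate 8 h replicate 1, 0 and 0.414 RPKM in moderate 12 h replicates 1 and 3, and 0.263 RPKM in severe 4 h replicate 3. In the other 40 libraries it ran from 80.9 to 726 RPKM, the lowest being moderate 8 h replicate 3 and the next 155 RPKM. No control library was among the 5, and the other libraries of the same 4 groups were at 80.9 RPKM or more. No other member was under 6.98 RPKM in any library. The 5 libraries were picked by the values of c86594_g4 itself, so its own gap was given by construction. No other listed gene was at least 10-fold lower in each of the 5 libraries than in each of the other 40, and none was at least 10-fold higher. The difference between severe and moderate hypoxia at 12 h, 5.51 ± 1.77 (adjusted p = 0.0142), depended on each moderate library. It was 8.22 (adjusted p = 0.000938) without moderate 12 h replicate 2, the library with 332 RPKM, 4.03 (adjusted p = 0.0946) without moderate 12 h replicate 1 and 4.28 (adjusted p = 0.078) without replicate 3.

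Of the 50 members, 37 were called in at least 1 of the 13 comparisons and 13 in none. The same count was not made for all genes, so 37 cannot be read as a trait of the members. Severe against moderate hypoxia over 4 to 24 h alone called 51.7% of all genes tested. The ratio of the highest to the lowest library of a member was at least 2.90 and, leaving aside c86594_g4, at most 43.0.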

How the data were processed

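The authors made RPKM values (reads scaled by gene length and library total) before they deposited them, 1 table per library; per the file headers no unit is named, so it was read from the values. Per the labels' protocols, 125-bp paired-end reads were cleaned and assembled with Trinity. Aligner, counter and the listing rule were not given in the sources used here. Whole gene lengths and library totals turned all 117443 RPKM values above 0 into whole reads (tolerance 0.01), which gave the depths. No library was a copy of another: over 990 pairs the chi-square per gene of their reads was never under 28.1.

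Tests used the genes that reached 1 RPKM in 3 or more libraries. With limma 3.58.1 (R 4.3.3, intensity trend), the 15 group means were fitted in a single model to log2(RPKM + 1) of the 45 libraries. P-values were adjusted by Benjamini-Hochberg over all 2656 genes, and the procedure was tested on simulated data. Differences are of log2(RPKM + 1). Dependence between times of a tank was not modelled. None of the identifiers matched the reference gene table.

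The members and lists were chosen with earlier results of these data known. Named genes are the 4 with the highest control mean, the 2 largest rises and falls among the members called in each comparison, and the 2 nearest genes on either side of the limit. The comparisons of 24 h with 0 h within a hypoxia level were added after seeing the data. Alternatives were another pseudocount (0.1), no filter, no trend, quantile normalization, only the compared groups, a replicate block, a 2-fold minimum and leaving out libraries.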

Additional observations from a re-analysis of the deposited data

Results flagged for a closer look

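For 7 members the change from 0 h to the mean of 4 to 24 h in severe hypoxia differed from the change in control over the same times, by the limma test of that difference. These were 14% of the members, and the same test called 466 of all 2656 genes, 5.27% lower and 12.3% higher. The control libraries in this test also chose the members. In c89999_g1 the control change was -0.06 on the log2 scale and the severe change -2.07, a difference of -2.01 with an SE of 0.47 and an adjusted p of 0.00769. In c84211_g2 the control change was 0.43 and the severe change -1.48, a difference of -1.91 with an SE of 0.67 and an adjusted p of 0.0464. Its level at 8 h was 82.4, 90.3 and 90.9 RPKM in severe hypoxia and 193, 402 and 517 RPKM in control, and control 4 h replicate 1 held 1210.4 RPKM, its highest value. The call of c84211_g2 was lost in 23 of 38 alternatives, with adjusted p-values up to 0.19 without severe 0 h replicate 1. In c85950_g1 the control change was 0.01 and the severe change 1.57, a difference of 1.56 with an SE of 0.53 and an adjusted p of 0.0425. That call was lost in 13 of 38 alternatives, among them quantile normalization (1.32, adjusted p = 0.0825), control 0 h replicate 1 left out (1.10, adjusted p = 0.167) and severe 0 h replicate 3 left out (1.10, adjusted p = 0.174).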

How the results depend on the processing

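Of 34 tested values of named members, 14 kept direction and call in all alternatives, 17 lost the call in at least 1, 2 gained one (severe against moderate hypoxia over 4 to 24 h in c88255_g5 in 4 alternatives, down to an adjusted p of 0.00154, and in c91232_g1 in 1), and 1 changed direction: severe against moderate hypoxia over 4 to 24 h in c84608_g7, 0.05 with no call, ran from -0.016 (without moderate 12 h replicate 2) to 0.11 with 1 library left out. For severe against moderate hypoxia, the 2 members called at 4 h became 1 with a pseudocount of 0.1, quantile normalization or the replicate block and 0 with only the compared groups, and 0 to 3 when 1 library was left out (0 without moderate 4 h replicate 2 or 3 or severe 4 h replicate 3). The 4 at 8 h became 7 after quantile normalization and 1 to 3 with 1 library left out, the 14 at 12 h became 10 to 14, and the 9 at 24 h became 18 with only the compared groups and 4 to 7 with 1 library left out. The 22 over 4 to 24 h became 4 with a 2-fold minimum and 20 to 23 with 1 library left out. The 20 members that changed from severe 0 h became 9 with a 2-fold minimum and 10 to 20 with 1 library left out, and the 27 at 24 h became 21 to 24. For moderate hypoxia, 0 became 1 over 4 to 24 h after quantile normalization and 0 to 1 with 1 library left out, and the 7 at 24 h became 12 with only the compared groups, 4 with a 2-fold minimum and 4 to 7 with 1 library left out. The 7 members whose severe change differed from the control change became 14 without control 4 h replicate 3 and control 8 h replicate 3, and 2 to 11 with 1 library left out; the 0 for moderate hypoxia stayed in every alternative run, and the F-test over control times gave 0 to 1. Quantile normalization gave 10 lower and 0 higher at 24 h, 1 lower at 4 h, and 9 lower and 0 higher in the severe change against control. The replicate block gave 23 over 4 to 24 h, 15 at 12 h and 8 at 24 h, and lowered only the 4 h count by more than 1.5 times. Counts of all genes called under the alternatives are not given here, so a moved member count cannot be read as particular to the members. Over all 105 pairs of groups, same-numbered libraries correlated at 0.00957 on average, with a range from -0.539 to 0.667. Differently numbered libraries correlated at -0.00499 on average, and 17 of 45 libraries correlated best with their own number. Pairs of times within an oxygen level, which could share a tank, were not looked at alone, so pairing there was not tested. The rule gave 111 genes with a minimum of 50 RPKM and 29 with 200 RPKM. Without the most abundant member, the share of listed RPKM over 4 to 24 h was 38.1% in control, 35.7% in moderate and 31.6% in severe hypoxia. As a share of recovered reads it was 38.5%, 35.0% and 29.3% in control, moderate and severe hypoxia, with all 50 members. Apart from those given by construction (fewer libraries, a minimum fold), the cause was not tested.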
